A study of Homo sapiens with 6 samples.

Results

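Transcripts of 10 genes that carry human cells from G1 into S phase were measured in mitotic fibroblasts with and without activation of oncogenic H-Ras. They are the D-type cyclins CCND1, CCND2 and CCND3, the E-type cyclins CCNE1 and CCNE2, the kinases CDK2, CDK4 and CDK6, and the SCF-SKP2 ubiquitin ligase components SKP2 and CKS1B. The 10 genes were found by symbol among 63009 genes read from the table of expression values. For CKS1B, which had a pair of rows, the row with the higher mean was taken (the other row, ENSG00000268942, was left out). Expression was given as FPKM, fragments scaled to transcript length and to the mapped fragments of the library, so levels of different genes can be compared per length. Means are given ± SD with n = 3 libraries in each group.

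The 6 libraries came from IMR90 cells, human fibroblasts grown as a primary cell line, that carried H-RasV12 fused to the ligand-binding domain of the estrogen receptor and introduced by a retrovirus (ERRAS cells). Control mitotic cells (3 libraries) carried the same construct and were left uninduced, whereas Ras-induced mitotic cells (3 libraries) were given tamoxifen for 4 days, at 100 nM according to the sample labels; the study's methods state the dose in ng/ml. Both groups were held in mitosis with 1 μM dimethylenastron (DME), an inhibitor of the kinesin Eg5, and detached cells were collected. All 6 libraries therefore shared the construct, G418, low oxygen and the DME arrest, and profiled cells past the point at which G1 cyclins act. In bulk RNA, fewer cells expressing a gene and less RNA per cell cannot be told apart.

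HRAS, the gene that the construct carries, measured 1174, 1176 and 1140.3 FPKM in control cells 1 to 3 and 1439, 1847 and 1473 FPKM in Ras-induced cells 1 to 3, without overlap. Its log2 fold change of 0.44 (SE 0.11, 95% confidence interval 0.17 to 0.70, adjusted p = 0.0431 from limma) was past the threshold in 4 of the 14 fits run. The fibroblast markers COL1A1, COL1A2, VIM and THY1 were present in every library. The summed FPKM of 10 fibroblast markers was 4986 to 5674 in control and 3171 to 4418 in Ras-induced cells. Of these 10, 5 were called lower, against 5.67% of all tested genes. FAP alone among them lay higher without overlap (means of 39.0 and 66.3 FPKM) and was not called. Of the markers of other cell types, the leukocyte genes CD3E and ITGAM and the endothelial gene PECAM1 were listed at 0 in every library, and the summed FPKM of 4 endothelial markers did not exceed 0.138. The 6 epithelial markers summed to 77.2 to 91.0 FPKM in control and 88.1 to 92.8 FPKM in Ras-induced cells, nearly all from keratins, with CDH1 at 0.224 FPKM or less. EPCAM, which was not tested, was listed at 1.05, 0.880 and 1.80 FPKM in control and 0.272, 0.167 and 0.424 FPKM in Ras-induced cells, without overlap, and KRT18 was without overlap in the other direction (means of 48.1 and 57.9 FPKM). The 5 leukocyte markers summed to 25.2 to 30.7 and 30.5 to 35.7 FPKM, nearly all from CD68, and none of the keratins nor CD68 was called. The summed FPKM of 10 genes of G2 and M phase was 2000.4 to 2045 in control and 1613 to 1791 in Ras-induced cells, and 5 of the 10 were called lower, against the same 5.67%; among them TOP2A, like CDK1 on the same list, was listed at a level (9.60 and 5.90 FPKM in mean) that may not reflect its transcripts. The part that these marker differences play in the results below was not tested.

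D-type cyclins are the cyclins that growth factor signaling through Ras and ERK controls most directly. They bind CDK4 or CDK6, and these kinases phosphorylate the retinoblastoma protein and so release E2F transcription factors. E2F drives the E-type cyclins, which activate CDK2 and complete the passage into S phase. SKP2 with its cofactor CKS1B marks the CDK inhibitor p27 (CDKN1B) for destruction and thereby frees CDK2.

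Of the 10 genes, CDK6 was lower in Ras-induced mitotic cells by 2.59-fold in mean FPKM. It was the sole member called altered in the fit without pairing. CCND3 was 1.48-fold higher in mean, with no overlap between the groups. It missed the threshold in the fit without pairing and passed it when libraries were paired by number. CCND1, by far the most abundant member, CDK4, SKP2, CKS1B and CDK2 had overlapping libraries and were not called. CCNE1, CCNE2 and CCND2 had means near or below 1 FPKM in both groups. Calls came from limma on log2(FPKM + 1) over the 13993 genes whose mean FPKM was 1 or more, at a Benjamini-Hochberg adjusted p of 0.05, and fold changes on this scale understate the change of genes with low FPKM. Of the 10 genes 8 passed this filter, and CCND2 and CCNE2 did not. The 1 member called of 8 stands beside 16.7% of all tested genes called, 11.0% higher and 5.67% lower. The 2 members whose libraries did not overlap between groups (CDK6 lower, CCND3 higher) stand beside 39.9% of all tested genes, 27.1% higher and 12.8% lower. Neither total is above its background. The balance of all calls moved with scaling, from 1543 higher and 793 lower in the deposited values to 921 and 1101 after upper-quartile scaling. The median log2 fold change of the 8 tested members was -0.05, and that of all tested genes was 0.10.

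**Figure D1:**
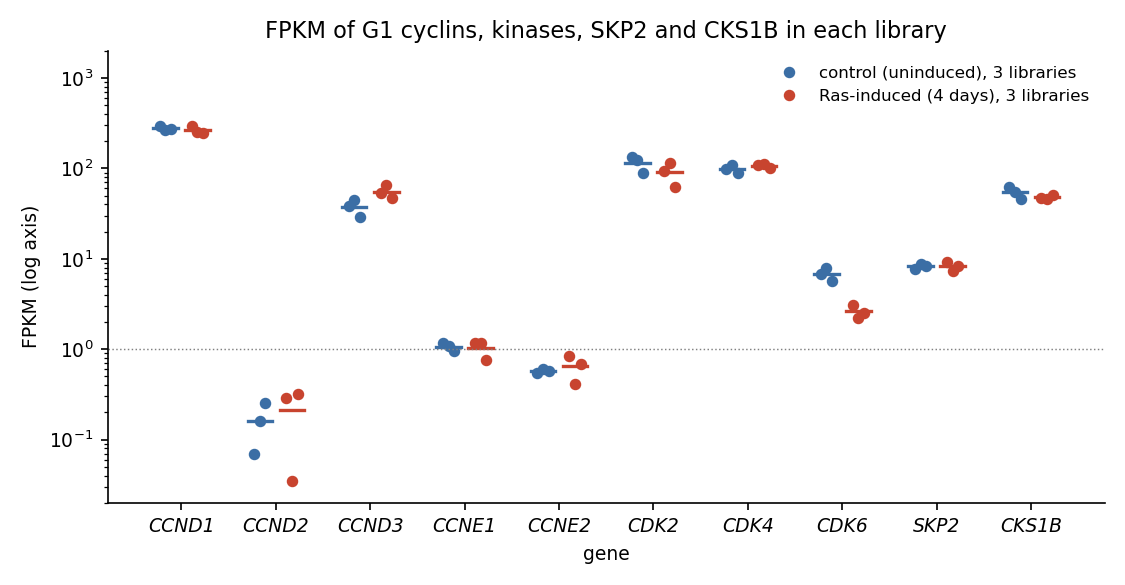
FPKM (log axis) of each gene in the 3 control (blue) and 3 Ras-induced (red) libraries, with library 1 to 3 from left to right and a line at each mean; the dotted line marks 1 FPKM. The CDK6 and CCND3 points of both groups do not overlap, and CCND1 is at 248 FPKM or more in every library.

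The promoter windows of CDK6, the member that fell, and of CCND3, the other member whose groups did not overlap, are shown because the results turn on these genes. Each is the 250 bases before a RefSeq transcription start, 5′ to 3′ along the gene, placed on GRCh37 by an exact match; RefSeq entries (GRCh38.p14) matched 6 of the 10 members. The CCND3 window lies inside the longest CCND3 gene model, upstream of an internal start. Both genes have other RefSeq starts too, and gene-level FPKM does not say which start was used. Capitals mark GC boxes (GGGCGG on either strand).
CDK6 (chr7:92465888-92466137, minus strand): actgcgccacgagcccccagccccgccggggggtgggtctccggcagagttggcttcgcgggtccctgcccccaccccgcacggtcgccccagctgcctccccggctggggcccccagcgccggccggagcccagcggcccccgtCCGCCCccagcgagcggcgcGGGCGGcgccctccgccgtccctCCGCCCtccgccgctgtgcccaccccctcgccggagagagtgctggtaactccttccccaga
CCND3 (chr6:41909547-41909796, minus strand): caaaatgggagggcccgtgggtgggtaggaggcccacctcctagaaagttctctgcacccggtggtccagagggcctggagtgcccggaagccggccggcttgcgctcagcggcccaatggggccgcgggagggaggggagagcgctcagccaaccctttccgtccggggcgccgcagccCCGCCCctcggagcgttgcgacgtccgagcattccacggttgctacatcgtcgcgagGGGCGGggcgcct

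The CDK6 window held 3 GC boxes and the CCND3 window 2, and 42.5% of 34943 RefSeq windows of the same length held at least 1. The other CDK6 window held 0, and the other CCND3 windows held 5 and 0. Neither window contained an E-box (CACGTG, in 6.32% of all windows), an AP-1 site (TGACTCA on either strand, 4.22%) or either E2F form searched (TTTCGCGC, 0.429%; TTTGGCGC, 0.547%). The window of CDK4, whose level is described below, held 3 E-boxes and 3 GC boxes.

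CDK6 (ENSG00000105810, chr7:92234235-92465887, minus strand of GRCh37) encodes a catalytic partner of the D-type cyclins. It measured 6.84, 7.86 and 5.66 FPKM in control cells 1 to 3 and 3.09, 2.24 and 2.54 FPKM in Ras-induced cells 1 to 3. Every Ras-induced value was below every control value, and the highest Ras-induced value was 3.09 FPKM against a lowest control value of 5.66 FPKM. The means were 6.79 ± 1.10 FPKM and 2.62 ± 0.431 FPKM, a log2 fold change of -1.10 (SE 0.16, 95% confidence interval -1.48 to -0.73, adjusted p = 0.00788 from limma). This change was lower than that of all but 2.70% of tested genes. The exact permutation p was 0.1, the smallest that 3 libraries against 3 allow. The antisense gene CDK6-AS1, listed as AC002454.1, overlaps the CDK6 gene by 207 bases, and the library kit does not mark strand. It measured 3.43, 1.34 and 2.74 FPKM in control cells 1 to 3 and 1.09, 1.78 and 2.09 FPKM in Ras-induced cells 1 to 3, with overlapping groups. CDK6 stood low among tested genes in level (27.0th percentile of mean FPKM).

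CDK4 (ENSG00000135446, chr12:58141510-58149796, minus strand) encodes the other catalytic partner of the D-type cyclins. It measured 99.6, 109.6 and 88.5 FPKM in control cells 1 to 3 and 109, 112 and 100.1 FPKM in Ras-induced cells 1 to 3. The groups overlapped and the means were 99.2 ± 10.6 FPKM and 107 ± 6.32 FPKM, a log2 fold change of 0.11 (SE 0.10, 95% confidence interval -0.13 to 0.35, adjusted p = 0.465 from limma). The interval therefore leaves room for a small difference in either direction. TSPAN31, an antisense neighbor that overlaps CDK4 by 2493 bases, was listed between 14.7 and 20.4 FPKM. CDK6 made up 6.43, 6.69 and 6.01% of the summed CDK4 and CDK6 FPKM in control libraries 1 to 3 and 2.76, 1.95 and 2.47% in Ras-induced libraries 1 to 3. This share is taken within a library and so does not depend on the scaling between libraries. CDK4 made up the rest, and the summed FPKM of both kinases was 106 ± 11.7 in control and 109.7 ± 6.29 in Ras-induced cells, with overlapping libraries.

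CDK2 (ENSG00000123374, chr12:56360565-56366573, plus strand), the kinase partner of E-type cyclins and later of cyclin A, measured 134, 122 and 89.8 FPKM in control cells 1 to 3 and 93.1, 114 and 63.0 FPKM in Ras-induced cells 1 to 3. Library 3 was the lowest of each group, and the groups overlapped. Its means were 115 ± 22.7 FPKM and 90.1 ± 25.7 FPKM, a log2 fold change of -0.37 (SE 0.24, 95% confidence interval -0.95 to 0.21, adjusted p = 0.329 from limma). CDK2 was above CDK4 in all 3 control libraries, by a ratio of 1.34, 1.12 and 1.01, and the ratio was 0.855, 1.02 and 0.629 in Ras-induced libraries, so a single Ras-induced library reached the control range. Genes on the opposite strand overlap CDK2, namely PMEL over its whole length and the noncoding RP11-973D8.4 over 637 bases. RP11-973D8.4 measured 43.8, 43.6 and 28.8 FPKM in control cells 1 to 3 and 28.1, 33.8 and 18.9 FPKM in Ras-induced cells 1 to 3, lowest in the libraries in which CDK2 was lowest in each group. PMEL was listed between 2.43 and 4.38 FPKM in control and between 1.08 and 1.10 FPKM in Ras-induced libraries. Without strand information, reads of these genes and of CDK2 cannot be told apart where they overlap.

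**Figure D2:**
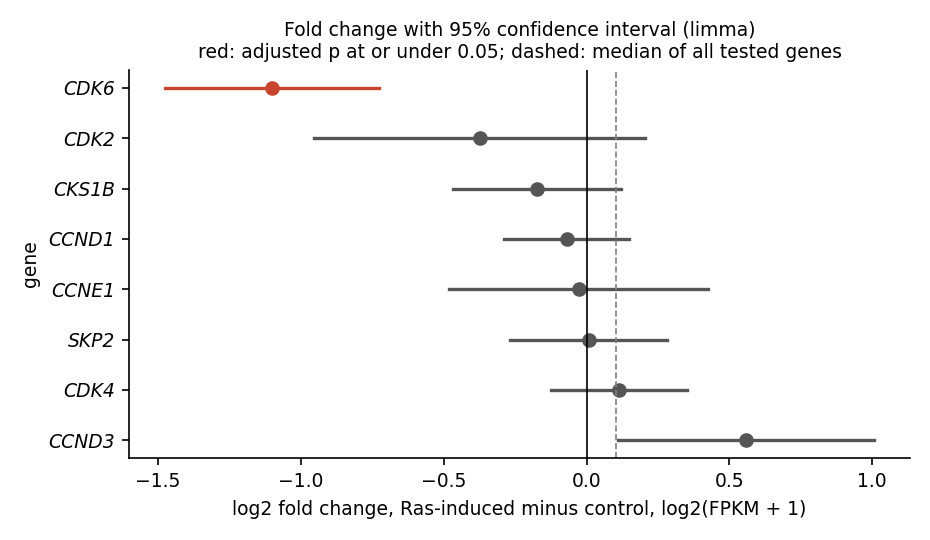
Log2 fold change of the 8 tested members on the log2(FPKM + 1) scale (points) with 95% confidence intervals (lines) from limma, from CDK6 at the top (-1.10) to CCND3 at the bottom (0.56). The CDK6 interval alone belongs to a call (red), and the dashed line marks the median of all tested genes at 0.10.

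Among the D-type cyclins, CCND1 (ENSG00000110092, chr11:69455924-69469242, plus strand), the cyclin that Ras and ERK signaling most often induces, was the most abundant member in each of the 6 libraries and stood at the 97.7th percentile of tested genes. It measured 294, 264 and 274 FPKM in control cells 1 to 3 and 292, 253 and 248 FPKM in Ras-induced cells 1 to 3. The groups overlapped, with a mean of 277 ± 15.1 FPKM in control and 265 ± 24.3 FPKM in Ras-induced cells. It had a log2 fold change of -0.07 (SE 0.09, 95% confidence interval -0.29 to 0.15, adjusted p = 0.63 from limma). ORAOV1, on the opposite strand and overlapping CCND1 by 1399 bases, was listed between 60.8 and 77.0 FPKM.

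CCND3 (ENSG00000112576, chr6:41902672-42018095, minus strand) measured 38.6, 44.7 and 29.0 FPKM in control cells 1 to 3 and 53.9, 65.6 and 46.5 FPKM in Ras-induced cells 1 to 3. All Ras-induced values were above all control values, but the nearest pair, 44.7 and 46.5 FPKM, differed by less than the SD of either group. The means were 37.4 ± 7.90 FPKM and 55.3 ± 9.63 FPKM, a log2 fold change of 0.56 (SE 0.19, 95% confidence interval 0.11 to 1.01, adjusted p = 0.0884 from limma). The unadjusted p from limma was 0.0216 and the exact permutation p 0.1. A limma fit with a replicate block, which pairs libraries by number, gave an adjusted p of 0.0175. Whether the numbers pair libraries is not known. CCND3 made up 11.6, 14.5 and 9.56% of the summed D-type cyclin FPKM in control libraries 1 to 3 and 15.5, 20.5 and 15.8% in Ras-induced libraries 1 to 3, without overlap. The share of CCND1 was 88.4, 85.5 and 90.4% in the controls and 84.4, 79.4 and 84.1% after induction.

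CCND2 (ENSG00000118971, chr12:4378937-4414519, plus strand) was close to absent, at 0.0694, 0.159 and 0.253 FPKM in control cells 1 to 3 and 0.287, 0.0349 and 0.317 FPKM in Ras-induced cells 1 to 3. The summed FPKM of the D-type cyclins was 315 ± 15.4 in control and 320.0 ± 25.98 in Ras-induced cells. The totals overlapped between the groups, whereas the shares of CCND1 and CCND3 within them did not. With CCND2 so low these shares mirror each other and are a single result, and the FPKM of CCND1 itself overlapped.

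**Figure D3:**
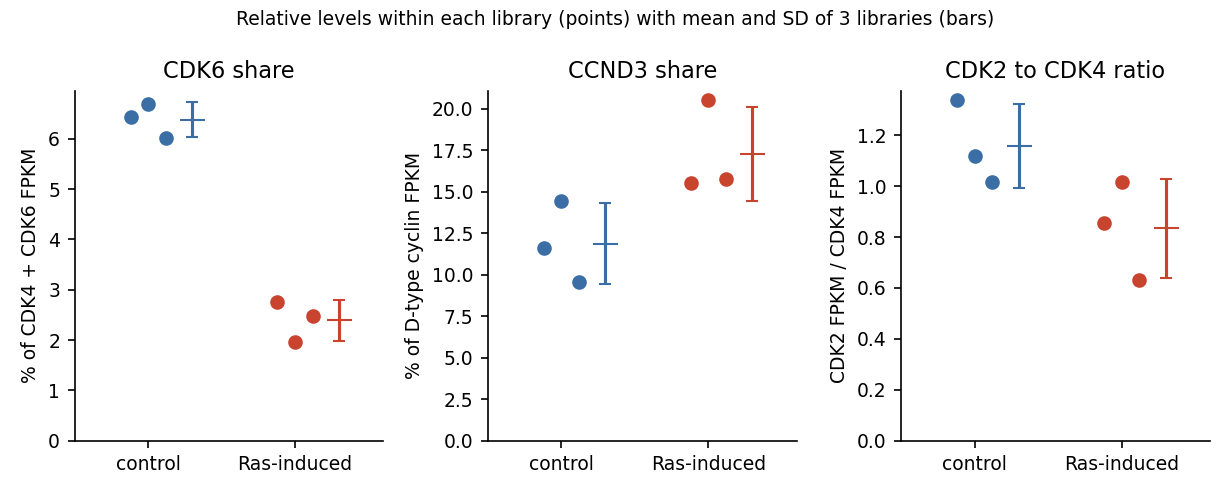
Within-library quantities in 3 control (blue) and 3 Ras-induced (red) libraries: CDK6 as % of CDK4 plus CDK6 FPKM, CCND3 as % of D-type cyclin FPKM, and the ratio of CDK2 to CDK4 FPKM, all on axes from 0, with points for libraries and bars for mean and SD. The first and second quantity do not overlap between groups (6.01% or more against 2.76% or less for CDK6, and 14.5% or less against 15.5% or more for CCND3), whereas the CDK2 to CDK4 ratios meet near 1.02.

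The E-type cyclins were at low levels in both groups of mitotic cells. CCNE1 (ENSG00000105173, chr19:30302898-30315219, plus strand) measured 1.16, 1.08 and 0.944 FPKM in control cells 1 to 3 and 1.16, 1.17 and 0.763 FPKM in Ras-induced cells 1 to 3, with overlapping groups and a log2 fold change of -0.03 (SE 0.19, 95% confidence interval -0.48 to 0.43, adjusted p = 0.937 from limma). CCNE2 (ENSG00000175305) measured 0.549, 0.610 and 0.572 FPKM in control cells 1 to 3 and 0.845, 0.417 and 0.694 FPKM in Ras-induced cells 1 to 3 and was not tested because its mean was below 1 FPKM. INTS8, which overlaps CCNE2 on the opposite strand by 1977 bases, was listed at 17.99 to 32.0 FPKM in control and 28.5 to 39.5 FPKM in Ras-induced libraries. The summed E-type FPKM was 1.64 ± 0.106 in control and 1.68 ± 0.289 in Ras-induced cells.

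SKP2 (ENSG00000145604, chr5:36152091-36196951, plus strand), the substrate receptor of the ligase, measured 7.67, 8.72 and 8.37 FPKM in control cells 1 to 3 and 9.32, 7.30 and 8.35 FPKM in Ras-induced cells 1 to 3. The groups overlapped, with a log2 fold change of 0.01 (SE 0.11, 95% confidence interval -0.27 to 0.28, adjusted p = 0.973 from limma), a value that turned negative under either other scaling. NADK2, on the opposite strand and overlapping SKP2 by 4261 bases, was listed between 7.15 and 11.0 FPKM. CKS1B (ENSG00000173207, chr1:154947129-154951727, plus strand), the small cofactor that helps SKP2 to hold p27, measured 62.8, 54.6 and 45.8 FPKM in control cells 1 to 3 and 46.9, 45.7 and 50.6 FPKM in Ras-induced cells 1 to 3. Its means were 54.4 ± 8.47 FPKM and 47.7 ± 2.56 FPKM, a log2 fold change of -0.17 (SE 0.12, 95% confidence interval -0.47 to 0.12, adjusted p = 0.37 from limma), and the controls spread more widely than the Ras-induced libraries. CKS1B was above CCND3 in all 3 control libraries (CCND3 over CKS1B 0.614, 0.818 and 0.633), whereas in Ras-induced libraries the ratio was 1.15, 1.44 and 0.918. CKS2, the paralog of CKS1B, was far more abundant, at 497 ± 17.9 FPKM in control and 559 ± 44.9 FPKM in Ras-induced cells (adjusted p = 0.221 from limma).

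In FPKM per length, the order of mean levels in control cells was CCND1, CDK2, CDK4, CKS1B, CCND3, SKP2, CDK6, CCNE1, CCNE2 and CCND2. Of neighbors in this order, CDK2 and CDK4 overlapped, and so did SKP2 and CDK6. In Ras-induced cells CDK4 stood above CDK2 and CCND3 above CKS1B in mean, but CDK4 overlapped CDK2, CDK2 overlapped CCND3, CCND3 overlapped CKS1B, and CCNE1 overlapped CCNE2. SKP2 and CDK6, which overlapped in control cells, were separate after induction, with the lowest SKP2 value at 7.30 FPKM and the highest CDK6 value at 3.09 FPKM.

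The rest of the G1/S network was described from lists of textbook genes, whose counts stand beside the 11.0% of all tested genes that were called higher and the 5.67% called lower. Of 7 INK4 and CIP/KIP inhibitors, 3 rose and 2 fell, and their median log2 fold change was 0.23. CDKN2B (p15), which binds CDK4 and CDK6, rose from 2.31 ± 0.809 FPKM to 18.7 ± 4.01 FPKM (adjusted p = 0.00212 from limma), and CDKN1A (p21) and CDKN2A rose with log2 fold changes of 1.56 and 0.80 (adjusted p = 0.0496 and 0.00368). The CDKN2A gene encodes both p16 and ARF, which a gene-level value pools. CDKN2C (p18) fell with a log2 fold change of -0.79 (adjusted p = 0.0127 from limma). CDKN1B (p27), the substrate of SKP2 and CKS1B, fell from 25.3 ± 1.99 FPKM to 15.4 ± 0.111 FPKM, with a log2 fold change of -0.68 (adjusted p = 0.00545 from limma). The summed FPKM of the 4 INK4 genes was 0.722, 0.652 and 0.624 times that of CDK4 plus CDK6 in control libraries 1 to 3 and 0.792, 0.777 and 0.716 times in Ras-induced libraries 1 to 3, so the ranges overlapped slightly. CDKN2A, CDKN2B and CDKN1B were past the threshold in all 14 fits, CDKN2C in 11 and CDKN1A in 5.

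Of 13 pocket protein, E2F and DP genes 12 were tested, 3 rose and 4 fell, against 11.0% and 5.67% of all tested genes, and the median log2 fold change was -0.26. RB1, the retinoblastoma protein that CDK4 and CDK6 phosphorylate, fell from 32.7 ± 3.44 FPKM to 22.8 ± 1.07 FPKM (adjusted p = 0.0201 from limma). E2F8, E2F5 and RBL1 fell with log2 fold changes of -1.16, -0.81 and -0.60, and E2F6, E2F7 and E2F4 rose with 0.71, 0.65 and 0.33. E2F4, E2F5, E2F6, E2F7 and E2F8, of which 3 rose and 2 fell, are all known mainly as repressors. E2F5 was past the threshold in all 14 fits, E2F6 in 10, RB1 in 9, E2F7 in 5 and E2F4 in 4. E2F8 was past it in 10 and RBL1 in 7 of the 13 fits that tested them. Without Ras-induced library 1 or 3 a single gene of this list was past it. E2F1, an activator, measured 10.5 ± 3.70 FPKM and 4.59 ± 1.88 FPKM and was not called (adjusted p = 0.0694 from limma). E2F2, which was not tested, was listed at 0.535, 0.601 and 0.414 FPKM in control and at 0.0110, 0.0730 and 0.0383 FPKM in Ras-induced libraries.

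Of 12 genes for CDK activation and cyclin turnover, 2 rose and 1 fell, with a median log2 fold change of 0.16, against 11.0% and 5.67% of all tested genes called. Of the 12, 8 lay higher and 1 lower without overlap between the groups, against 27.1% and 12.8% of all tested genes. CDK7, the catalytic subunit of the CDK-activating kinase, and FBXO31, a ligase receptor for cyclin D1, rose with log2 fold changes of 0.47 and 0.43, and the phosphatase gene CDC25A fell with -0.56. CDC25A was past the threshold in 13 of 14 fits, CDK7 in 8 and FBXO31 in 3. The other SCF components SKP1, CUL1 and RBX1 were not called (adjusted p = 0.19, 0.592 and 0.104 from limma). Of 4 genes of the later cell cycle, CCNA2, a CDK2 partner, and CCNB2, a CDK1 partner, fell with log2 fold changes of -0.50 and -0.33, in 12 and 8 of the 14 fits, and the median of the 4 was -0.31. CDK1 was listed between 1.56 and 5.93 FPKM in every library although CCNB1 had means of 549.7 and 482 FPKM, and whether the value listed for CDK1 reflects its transcript level is uncertain.

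Of 16 textbook E2F targets of S phase entry, with CCNA2 among them as well, 12 fell and none rose, against 5.67% and 11.0% of all tested genes. Their median log2 fold change was -0.79. TYMS, MCM3 and MCM6 fell the most, with log2 fold changes of -1.67, -1.30 and -1.26 (adjusted p = 0.00279, 0.00287 and 0.00384 from limma). CCNE1, itself an E2F target, had -0.03 in the same libraries, but at means of 1.06 and 1.03 FPKM, where this scale understates change. Its value therefore does not show whether it was spared. The difference between these targets and the G1 cyclins was not tested.

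**Figure D4:**
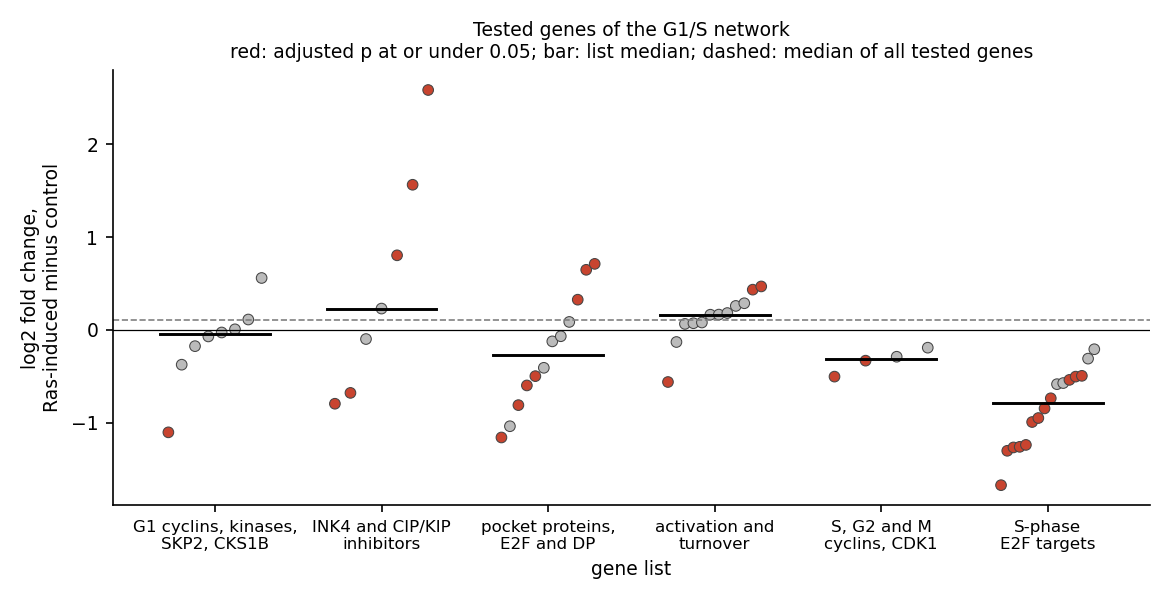
Log2 fold change (Ras-induced minus control, log2(FPKM + 1)) of every tested gene in 6 lists, ordered by value within each list; red points passed an adjusted p of 0.05, bars mark list medians and the dashed line the median of all tested genes (0.10). The 16 E2F targets all lie below 0 with a median of -0.79, the inhibitors spread from -0.79 to 2.58, and 7 of the 8 tested G1 members lie between -0.37 and 0.56.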

How the data were processed

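Poly(A) RNA of 3 control and 3 Ras-induced mitotic cultures was sequenced on a NextSeq500. The authors trimmed reads with Trim Galore 0.3.0, aligned them to hg19 with TopHat2 using Ensembl build 73 junctions, and deposited Cufflinks FPKM per gene and library; no scaling between libraries was given in the sources used here. The columns name group and number but not the sample, so each column was taken as an unnumbered replicate of its group. Of 63129 genes listed, 120 with more than 6 values were left out, which accounts for the 18 unnamed columns that were not used. The authors' cuffdiff table (group FPKM, fold change, test statistic, p and q) was not used.

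Depth relative to the first control library, read from the steps between low FPKM values, was 0.844 to 1.17; absolute depth is unknown. Genes whose mean was 1 FPKM or more (13993) entered a limma 3.58.1 fit of log2(FPKM + 1), run under R 4.3.3 (eBayes with trend, two-sided, Benjamini-Hochberg over all tested genes). Single genes were also tested by exact permutation (scipy 1.17.1, two-sided). The fit was tested on simulated data, in which it called 159 of 200 shifted genes and 5 unshifted genes. Shifts as small as that of CCND3, or in genes near 1 FPKM, were not simulated. Positions are from GENCODE 44 on GRCh37, the build of hg19, and promoter windows from RefSeq. The members, lists and named genes (all members, and per list up to 3 called rises and falls plus RB1, CDKN1B, CDKN2A and CCNA2) were chosen with earlier results of these data known. E2F1, E2F2, CDK1, CKS2 and the SCF components were named after their values were seen. The study repeated the experiment independently, and the groups were compared without pairing. Alternatives were another pseudocount, other filters, upper-quartile and quantile scaling, a fit with no trend, a replicate block, each library left out and a fold threshold.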

Additional observations from a re-analysis of the deposited data

How the results depend on the processing

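CDK6 was lower with an adjusted p between 0.0043 and 0.0444 in all 13 fits that tested it. With a filter at a mean of 5 FPKM it was not tested, and the count of members called was 0. The count was 2 with the replicate block, in which CCND3 had an adjusted p = 0.0175 from limma at a log2 fold change of 0.56; in the other fits the adjusted p of CCND3 was 0.067 to 0.216. Same-numbered libraries deviated together with correlations of -0.00266 to 0.0481, against -0.0679 to 0.0311 for libraries of other numbers. Of the 6 libraries, 4 correlated best with their own number. These values do not decide whether the numbers pair libraries, and the calls given above come from the fit without pairing. The block called 2310 genes in all. The log2 fold change of SKP2 turned from 0.01 to -0.086 under quantile normalization and -0.091 under upper-quartile scaling, and lay between -0.069 and 0.089 with a library left out. That of CCNE1 lay between -0.077 and 0.072 with a library left out. The summed D-type cyclin FPKM, 5.32 higher after induction in the deposited values, was lower by a difference of -18.9 after upper-quartile scaling; with a library left out it lay between -7.91 and 18.05, and was below 0 without control library 3 or Ras-induced library 1. The log2 fold change of CDK2, -0.37, was -0.14 without Ras-induced library 3 and -0.56 without Ras-induced library 2, and was not called in either fit. That of CKS1B, -0.17, was -0.067 without control library 1 and -0.29 without control library 3. That of CCND1, -0.07, was -0.025 and -0.14 without Ras-induced library 3 and 1, and -0.18 under upper-quartile scaling. That of CDK4, 0.11, was 0.033 and 0.19 without control library 3 and 2, and 0.0031 under upper-quartile scaling. None of these fits called CKS1B, CCND1 or CDK4.

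Both scalings moved the median log2 fold change of all genes from 0.10 to 0.01 (quantile) and 0.0047 (upper quartile), and the split of calls from 1543 higher and 793 lower to 1044 and 1109 (quantile) and 921 and 1101 (upper quartile). Without a filter 1518 genes were called (960 higher), and with a log2 fold change of 1 or more in size there were 548 (311 higher, 237 lower). With a library left out there were 860 to 1872 (519 to 1162 higher, 335 to 710 lower). Control library 1 or 2, or any Ras-induced library, moved the first count by over 1.5 times. With a library left out, list calls ranged from 3 to 5 of the inhibitors, 1 to 7 of the pocket protein and E2F list, 0 to 2 of the activation and turnover list, 0 to 2 of the later cyclins and 8 to 13 of the E2F targets. With the fold threshold they were 2, 1, 0, 0 and 5, in the same order. The lowest list counts came without control library 2 or Ras-induced library 1 or 3, and for the inhibitors also without control library 1. The later cyclins had 1 call without a filter or without a trend, and the activation and turnover list 1 without a filter. The total of calls fell in every fit with a library left out, by an amount that depended on the library. List counts did not all fall, with 13 E2F targets called without Ras-induced library 2. Causes of these moves were not tested.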

Other observations

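Other CDK and cyclin genes were taken by symbol, as CDK with a number or as CCN with a letter and any number. Symbols with further letters were not taken. This choice was made after the values of the 10 members were seen. Of 15 tested kinase genes 3 rose and 1 fell, and of 16 tested cyclin genes 1 rose and 2 fell, beside 11.0% of all tested genes called higher and 5.67% lower. Counts this small are not read as a result for either family. CDK20 went from 0.850 ± 0.350 to 3.04 ± 0.00554 FPKM in mean, but its control mean was below the filter of 1 FPKM, so it entered the test through the Ras-induced libraries alone and its call is given no weight; without it 2 of 14 kinase genes rose. CDK7 rose with 0.47 (adjusted p = 0.0315 from limma) and CDK9, a kinase of transcription elongation, with 0.36 (adjusted p = 0.04 from limma). CDK15 fell from 13.4 ± 0.998 to 5.86 ± 2.57 FPKM, with -1.15 (adjusted p = 0.0454 from limma). CCNL2, a cyclin linked to splicing, rose with 0.43 (adjusted p = 0.0278 from limma), and CCNA2 and CCNB2 fell. CDK9 was past the threshold in 4 of the 14 fits, and CDK15 and CCNL2 in 7 each.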
